A study of Mus musculus with 6 samples.

Results

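The genes examined here are regulators of primordial germ cell (PGC) specification and early germ cell fate, upstream of meiosis. The list holds 10 genes, *Prdm1*, *Prdm14*, *Dppa3*, *Nanos2*, *Nanos3*, *Dnd1*, *Ifitm3*, *Dazl*, *Sohlh2* and *Kit*, chosen by name. A gene was taken as measured where the RefSeq identifier of an entry in the expression table mapped to its symbol, and 8 of the 10 genes had an entry, each with 1 entry, among 20633 entries in all. *Dppa3*, a marker of early PGCs also known as Stella, and *Ifitm3*, the interferon-induced membrane protein known as Fragilis, were not analysed here.

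PGCs are the founders of the germ line and arise in the mouse from a few cells of the epiblast that respond to BMP signals. BLIMP1 (the product of *Prdm1*), PRDM14 and TFAP2C then silence the somatic programme and restore expression of pluripotency genes, while RNA-binding proteins such as NANOS3 and DND1 keep the new germ cells alive. In embryonic stem (ES) cells many germ line genes are held in check by variant Polycomb repressive complex 1 (PRC1), which places ubiquitin on histone H2A, and RYBP or its paralogue YAF2 is a subunit of those variant complexes.

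Nuclear RNA, which is rich in unspliced transcripts, was sequenced from 6 libraries of mouse *Rybp fl/fl;Yaf2-/-* ES cells. The untreated group (UNT) has 3 libraries, labelled as biological replicates. The OHT group has another 3, from cells kept for 96 hr in 4-hydroxytamoxifen at 800 nM, a drug that activates a Cre recombinase and thereby removes *Rybp*. Every library, UNT included, lacks *Yaf2*, which had been removed by CRISPR/Cas9 in a line grown from an isolated colony, and no library came from OHT-treated cells without floxed *Rybp*. The study compared the conditions to ask how transcription changes when RYBP is removed.

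The quantity used here is the authors' mean normalized count for each entry, taken over the UNT and OHT libraries together. It describes how much nuclear RNA of each gene these cells hold, and it carries no SD, no n and no contrast between UNT and OHT. The columns of the authors' own comparison of the conditions were not used, so whether any of these genes rose or fell after OHT was not examined here. In bulk samples such as these, few cells with much RNA of a gene cannot be told apart from many cells with little.

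The depth behind the means could be read from the lowest values. An entry with a single read in a single library has a mean that depends only on that library's size factor, and 6 such steps were found, from 0.113 to 0.251 normalized counts. All 817 means under 0.6 were whole-number sums of these steps, within 1e-06. The steps correspond to size factors of 0.664 to 1.48, so that the deepest library held 2.23 times the depth of the shallowest, although no step could be assigned to a particular library or condition. More entries held 2 reads of 1 library (392) than a single read (172).

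The cells carried the RNA of ES cells. All 7 ES cell markers with an entry lay above the median of all entries per kb of gene span. Their median percentile was 97.9, and they ranged from 66.1 normalized counts per kb for *Esrrb* to 2181 for *Tdgf1*. Here and below, the median and quartiles of all entries are taken over entries with a mean above 0, and this median is 13.7 per kb. None of the 6 primitive endoderm markers and none of the 6 trophoblast markers lay above that median. Among the 6 fibroblast markers 2 did, the highest at 22.0 normalized counts per kb (0 of 6 per kb of exon). Counting the entries at 0 would lower the median. Genes close under it, such as the trophoblast marker *Cdx2* at 11.4 and *Sycp3* at 12.9, could then lie above it. Of 5 markers of differentiating germ cells, 4 were above the median per kb: *Dmc1* at 40.9 normalized counts per kb, *Stra8* at 33.4, *Ddx4* at 20.4 and *Piwil2* at 16.6, with *Sycp3* at 12.9, and all 5 were above the median per kb of exon. All 5 also belong to the 20 later germ cell genes described below. Of those 20, 7 were above the median per kb of span and 9 per kb of exon. The part of these 5 markers in the levels of the regulators was not tested. *Yaf2* itself, deleted in every library, had a mean of 3.24 normalized counts, or 0.062 per kb, and *Rybp* a mean of 13983 normalized counts over both conditions, a value that cannot show its deletion.

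Of the 8 germ cell regulators with an entry, 7 had a mean above 0, and *Kit* stood far from the rest. *Kit*, the receptor tyrosine kinase through which Kit ligand supports PGC migration and survival, had a mean of 4845 normalized counts, at percentile 94.2 of the 19198 entries with a mean above 0. The other 6 detected genes lay close together, from 114 normalized counts for *Dnd1* to 303 for *Prdm14*, a 2.66-fold range. Among the entries with a mean above 0 they lay between percentiles 37.7 and 49.8, all under the median of 307. With the entries at 0 included, *Prdm14* was at percentile 53.3 and *Sohlh2* at 50.2, and the rest stayed under the median. In the rank plot of the entries with a mean above 0, the 6 genes sit side by side just under the dotted median line. *Nanos2*, an RNA-binding protein of male fetal germ cells, was listed at exactly 0.

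**Figure D1:**
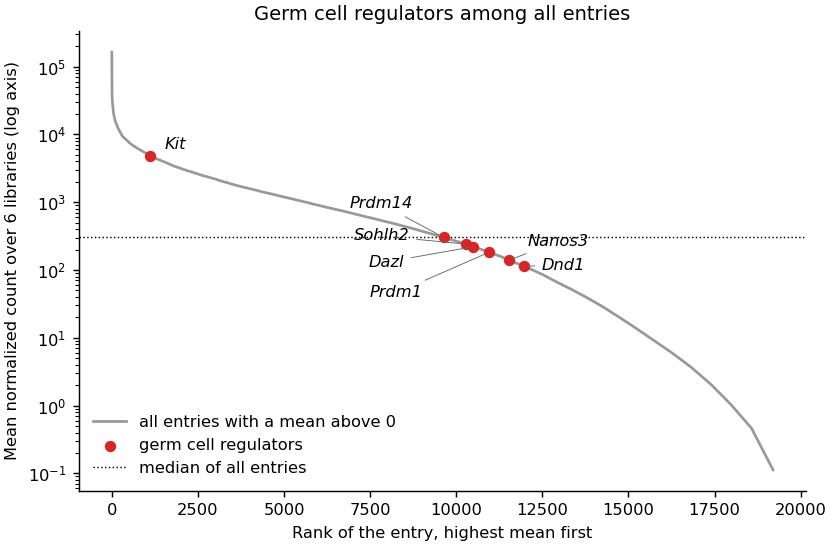
Mean normalized count over the UNT and OHT libraries (log axis, not corrected for gene length) against the rank of the entry, for all 19198 entries with a mean above 0 (grey line) and the 7 detected germ cell regulators (red). *Kit* lies at rank 1123 with 4845 normalized counts, the other 6 genes lie between 114 and 303, and the dotted line marks the median of 307.

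Since nuclear RNA covers introns, the length that fits a level is not given by the exons alone. In 50 pairs of entries of 1 gene in which the longer span enclosed the shorter but had no more exonic sequence, the longer entry had the higher mean in 50 pairs. The median ratio of the means was 1.35 at a median span ratio of 1.80. Over 18871 entries the mean went with span (Spearman's rho 0.37) no more closely than with exonic length (0.38), so these data do not settle which length to divide by. Levels are given per kb of the whole span of the entry, introns included, and per kb of exon where the statement turns on the length. The order of the germ cell regulators depended on the scale.

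The promoters of 4 genes are shown because they pair a level with a CpG content. *Kit* had the highest level per kb, and *Dazl* the CpG-richest of the windows examined. *Nanos3* had a high level per kb of span, though not by mean (percentile 39.9), with a CpG-poor window. *Nanos2* had no reads and no CpG. Polycomb complexes in ES cells gather at CpG-rich promoters, which is why CpG content is given. Each sequence is the 250 bases before the RefSeq start site, 5′ to 3′ in the direction of transcription, from RefSeq on GRCm38.p6 (the assembly of mm10), with CpG dinucleotides in capitals. They lie at chr5:75574737-75574986 (plus strand) for *Kit*, chr17:50293621-50293870 (minus strand) for *Dazl*, chr8:84176553-84176802 (minus strand) for *Nanos3* and chr7:18987274-18987523 (plus strand) for *Nanos2*. These start sites lie 124 bases inside the entry used for *Nanos2*, 32 for *Kit* and 16 for *Dazl*, so the printed stretches overlap those entries.
*Kit*: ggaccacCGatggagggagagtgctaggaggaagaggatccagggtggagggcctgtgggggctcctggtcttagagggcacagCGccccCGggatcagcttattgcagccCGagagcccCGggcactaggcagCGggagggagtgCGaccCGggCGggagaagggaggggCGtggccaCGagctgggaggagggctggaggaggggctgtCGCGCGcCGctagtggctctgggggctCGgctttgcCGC
*Dazl*: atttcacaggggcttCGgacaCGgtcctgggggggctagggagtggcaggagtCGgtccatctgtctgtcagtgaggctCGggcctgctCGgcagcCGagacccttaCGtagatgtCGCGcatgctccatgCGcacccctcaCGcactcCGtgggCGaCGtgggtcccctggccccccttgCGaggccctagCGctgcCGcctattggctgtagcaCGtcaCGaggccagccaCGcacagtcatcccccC
*Nanos3*: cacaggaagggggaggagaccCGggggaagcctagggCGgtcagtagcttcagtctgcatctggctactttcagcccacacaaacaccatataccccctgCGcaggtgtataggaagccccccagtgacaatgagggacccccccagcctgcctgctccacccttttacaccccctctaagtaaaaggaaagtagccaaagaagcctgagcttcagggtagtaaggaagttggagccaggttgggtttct
*Nanos2*: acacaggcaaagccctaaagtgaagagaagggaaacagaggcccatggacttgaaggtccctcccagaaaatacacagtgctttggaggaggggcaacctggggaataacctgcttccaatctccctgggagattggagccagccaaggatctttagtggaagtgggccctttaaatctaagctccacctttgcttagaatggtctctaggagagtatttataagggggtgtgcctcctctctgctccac

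All positions are on mm10. *Kit* spans 81.8 kb of chromosome 5 (75574955 to 75656722, plus strand), of which 6.38% is exonic, and its level was 59.2 normalized counts per kb. *Nanos3*, a zinc finger protein that protects migrating PGCs from cell death, spans 2.82 kb on the minus strand of chromosome 8 (84173733 to 84176552) in the entry used, and its mean of 140 normalized counts came to 49.5 per kb. Its mean was 34.7-fold below that of *Kit*. The gap was 4.86-fold per kb of exon, with 191 for *Nanos3* and 929 for *Kit*. *Dnd1*, an RNA-binding protein whose loss depletes PGCs, followed at 45.1 normalized counts per kb over a span of 2.53 kb. These 3 genes lay at percentiles 72.5 to 78.1 of the level per kb of span. Only *Kit* stayed in that region per kb of exon, at percentile 88.7, with *Nanos3* at 58.2 and *Dnd1* at 44.1.

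The remaining detected genes lay in the middle of the distribution, whose median is 13.7 normalized counts per kb. *Prdm14*, a regulator of both PGC specification and the pluripotent state, spans 13.7 kb on the minus strand of chromosome 1 (13113457 to 13127163) and had a level of 22.1 normalized counts per kb, at percentile 57.9. *Dazl*, an RNA-binding protein through which germ cells become competent for later development, spans 14.2 kb on the minus strand of chromosome 17 (50279397 to 50293636) and had 15.5 per kb, at percentile 51.8. Both were just above the median of all entries. *Prdm1*, the repressor of the somatic programme, spans 20.4 kb on the minus strand of chromosome 10 (44438293 to 44458687) and had 8.98 per kb, at percentile 43.8. *Sohlh2*, a basic helix-loop-helix factor of spermatogonia and oocytes, spans 27.9 kb on the plus strand of chromosome 3 (55182028 to 55209957) and had 8.64 per kb, at percentile 43.2. *Prdm1* and *Sohlh2* were the lowest of the detected regulators per kb of span, and the range from *Sohlh2* to *Kit* was 6.86-fold. Per kb of exon *Sohlh2*, at 102, was above *Dnd1* and *Dazl*, and the range, from *Prdm1* at 45.5 to *Kit*, was 20.4-fold. *Kit* was the highest and *Prdm1* was below *Prdm14* on both scales.

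**Figure D2:**
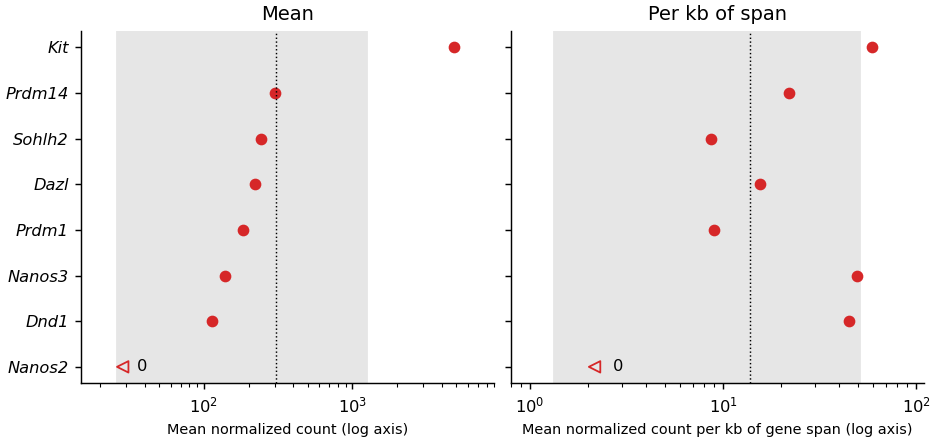
Mean normalized count (left) and mean normalized count per kb of gene span (right), both on log axes, for the 8 germ cell regulators with an entry. The dotted line and the grey band give the median and quartiles of all entries with a mean above 0, and the open triangle marks *Nanos2* at 0. *Nanos3* and *Dnd1*, low by mean, reach 49.5 and 45.1 per kb of span, beside *Kit* at 59.2; per kb of exon, not plotted, they are at 191 and 78.4 and *Kit* at 929. *Nanos3* lies at the edge of the band, whose upper limit is 51.2 per kb.

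With the spread between libraries unknown, the order of neighbours such as *Nanos3* and *Dnd1* (a ratio of 1.10 per kb) or *Prdm1* and *Sohlh2* cannot be tested. Counting depth varied widely between the genes. The mean of *Kit* rests on at least 19288 reads over the libraries and at most 42990, whatever their division among libraries, whereas that of *Dnd1* rests on 453 to 1010 and that of *Nanos3* on 555 to 1239. For *Nanos2*, 0 reads in all libraries allow a mean of up to 0.480 normalized counts (3 reads over the summed size factors, counting error only and with reads taken as independent; the limit is higher where reads come in pairs). All 13 housekeeping genes looked up had a mean above 0, the lowest 614 normalized counts. Genes at such levels cannot show whether reads of a gene as short as *Nanos2* were missed in mapping or counting. In all, 1435 entries (6.95%) were listed at 0.

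The annotation around some of these genes limits what their reads can be assigned to. *Nanos3* has 3 annotated transcripts, and the farthest start site lies 8.67 kb upstream of the start of the entry used. *Prdm1* has 4 annotated transcripts, with a start site 69.8 kb upstream. Reads of these longer transcripts were not separated from those of the entries used. *Nanos2*, a gene of a single exon, shares 49.0% of its span with an antisense gene on the other strand, and still had 0 reads.

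The printed promoter stretches hold 17 CpGs for *Kit*, 20 for *Dazl*, 3 for *Nanos3* and 0 for *Nanos2*. Counted over the full 300-base windows, which add the 50 bases from the start site on, *Dazl* had 28 CpGs, at percentile 86.4 of 32851 mouse promoter windows, and an observed/expected CpG ratio (the CpG count times the length, divided by the product of the C and G counts) of 0.80. *Prdm1* (20 CpGs, ratio 0.77) and *Kit* (20 CpGs, ratio 0.62) were also CpG-rich, defined as a ratio of at least 0.6 and a GC content of at least 50%. *Sohlh2* fell just short of that limit, with 17 CpGs and a ratio of 0.54. *Nanos3* had 3 CpGs and a ratio of 0.13, and *Nanos2* had 0. Promoter windows of *Prdm14* and *Dnd1* were not examined. Of the 6 regulators whose window was examined, 3 were CpG-rich, beside 52.6% of the 15084 genes with both an entry and a window.

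Across those genes, CpG-rich promoters went with higher levels. The median percentile of the level per kb was 66.7 for genes with CpG-rich windows and 21.6 for the others. Set against genes of like CpG ratio, *Nanos3* stood apart. Genes with a ratio of 0.1 to 0.2 had an upper quartile of 27.6, and *Nanos3* was at 74.3. *Kit*, at 78.1, was slightly above the upper quartile of 77.6 for its bin. *Dazl* and *Prdm1*, at 51.8 and 43.8, were under the median of 61.8 for ratios of 0.7 to 0.8 and above the lower quartile of 42.9, and *Sohlh2*, at 43.2, was below the median of 48.0 and above the lower quartile of 25.6 for its bin. Per kb of exon *Nanos3*, at 58.2, was again above the upper quartile of its bin, 23.8, and *Kit*, at 88.7, above that of its own, 76.2. On that scale *Prdm1*, at 37.7, was under the lower quartile of 41.9, and *Sohlh2*, at 47.7, was above the median of 45.3. The window of *Nanos3* covers 1 of its 2 annotated start sites, and the upstream site was not examined.

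**Figure D3:**
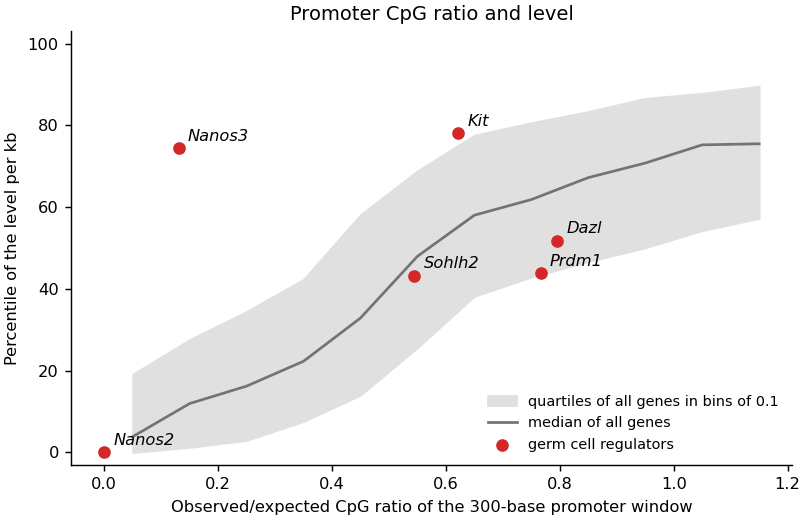
Percentile of the level per kb of gene span against the observed/expected CpG ratio of the 300-base promoter window, for the 6 germ cell regulators whose window was examined (red) and, over 15084 genes in bins of 0.1, the median (grey line) and quartiles (band) for ratios up to 1.2. *Nanos3* lies far above the band at a ratio of 0.13, and *Dazl* and *Prdm1* lie in its lower part.

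Short motifs were looked up on both strands of the same windows as a description of sequence. The E-box CACGTG, a letter pattern bound by MAX and MGA, was in none of the 6 windows and in 7.15% of all windows. TCCCGC, an E2F-like pattern, was found 2 times in *Kit*, both on the strand opposite to the one printed, with the leftmost base at -117 and -96 relative to the start site, and in none of the others. It occurs in 20.0% of all windows. TATAAA was found in *Nanos2* only, also on the opposite strand, at -33 (13.6% of all windows), and the octamer ATGCAAAT in none of the 6 (1.74% of all windows). The start site of the *Nanos2* window lies 124 bases inside the entry used, so this TATAAA match lies within the entry and not before it.

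The regulators were next set beside their paralogues, again as levels per kb. Among the 13 PRDM family genes compared, *Prdm14* ranked below *Prdm4* (71.5 normalized counts per kb), *Prdm2* and *Prdm15*, and *Prdm1* ranked above the meiotic histone methyltransferase *Prdm9*, at 6.09. *Prdm14*, at 118 per kb of exon, was on that scale also below *Prdm10* and *Prdm11*. The lowest per kb of span was *Mecom*, at 0.134, but its span of 558 kb is that of the whole gene and not of a matched transcript. *Prdm6* was close to it, at 0.137, and by mean *Prdm12* was the lowest, at 3.49 normalized counts beside 74.6 for *Mecom*. *Nanos1*, the family member best known from the nervous system, had 40.3 per kb, so that *Nanos3* exceeded it 1.23-fold (4.74-fold per kb of exon) while *Nanos2* was at 0. *Dazl* exceeded *Boll*, its meiotic paralogue, 5.93-fold per kb of span, but the direction turned per kb of exon, where *Dazl* had 74.1 and *Boll* 148. *Sohlh2* exceeded *Sohlh1* 5.83-fold per kb of span and 20.9-fold per kb of exon.

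*Kit* was the only type III receptor tyrosine kinase above the median of all entries. *Pdgfrb* followed with 6.64 normalized counts per kb, 8.93-fold below *Kit* (19.0-fold per kb of exon), then *Pdgfra* with 2.84 and *Flt3* with 0.33, and the macrophage receptor *Csf1r* was listed at 0. The ligand gene *Kitl* was measured at 5.08 per kb, 11.7-fold below its receptor. For the IFITM family, 5 of 7 genes had an entry, and *Ifitm1*, at 290 normalized counts per kb, was the highest of them, while *Ifitm5* had 31.4, *Ifitm7* 12.5, *Ifitm6* 0.79 and *Ifitm10* 0.17.

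**Figure D4:**
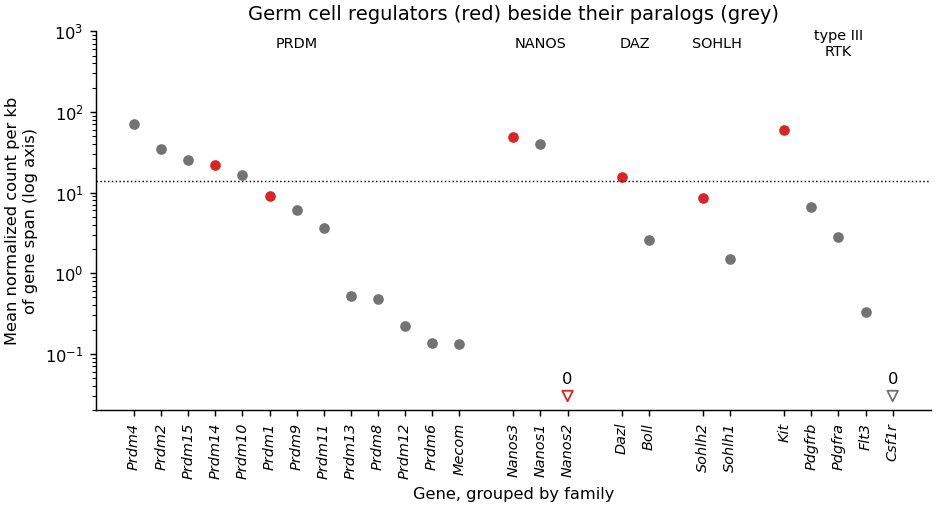
Mean normalized count per kb of gene span (log axis) for the germ cell regulators (red) and their paralogues (grey), grouped by family and ordered by level. Open triangles mark genes at 0 and the dotted line the median of all entries with a mean above 0, 13.7. *Kit*, *Nanos3*, *Dazl* and *Sohlh2* lead their groups on this scale (per kb of exon, *Boll* is above *Dazl*), and *Prdm14* and *Prdm1* lie in the middle of theirs.

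Genes that act with these regulators were measured through a list of 20 PGC induction and partner genes, all with an entry. Per kb, 13 of the 20 were above the median of all entries, and the list's median percentile was 66.5, beside 54.8 for the germ cell regulators, of which 5 of 8 were above the median. The median percentiles were 60.8 and 45.9 per kb of exon, and 11 of 20 and 2 of 8 were above the median. *Tfap2c*, the partner of *Prdm1* and *Prdm14* in PGC specification, had 125 normalized counts per kb, 14.0 times *Prdm1* and 5.67 times *Prdm14* (8.76 and 3.38 times per kb of exon). *Cbfa2t2*, a corepressor that binds PRDM14, was the highest of the list at 302 per kb. Of the BMP and WNT ligands that induce PGCs, *Bmp4* had 51.1 per kb and *Bmp8b* 8.53, while *Wnt3* had 3.61 and *Bmp2* 1.26. Their mesoderm target *T* had 2.79. *Fgf8* was the lowest of the list, at 0.99 per kb.

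The genes that follow in germ cell development lay at a median percentile of 41.7 per kb of span, below the regulators, but this gap was absent on the other scales. By mean the median percentiles were 44.3 for the later genes and 44.1 for the regulators, and per kb of exon 44.9 and 45.9. All 20 later germ cell genes had an entry, and 7 were above the median per kb of span. *Dmc1*, the meiotic recombinase, had 40.9 normalized counts per kb and *Ddx4*, the germ cell RNA helicase, 20.4. *Lhx8*, a homeobox factor of oocytes, was the lowest at 0.12 per kb. Per kb of span 1 of the 20, the meiotic cohesin subunit *Rec8* at 55.0, was higher than *Nanos3*, and 10 were lower than *Sohlh2*. Per kb of exon *Rec8* was below *Nanos3*, while 5 others were above it, and 11 were lower than *Sohlh2*.

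The subunits of PRC1.6, the variant PRC1 complex known for silencing germ line genes in ES cells, were abundant in the same RNA. Of 14 genes, 13 were above the median per kb, with a median percentile of 83.9 (12 of 14 and 88.2 per kb of exon), and 11 were higher than *Nanos3*. *Mga*, its DNA-binding scaffold, had 189 normalized counts per kb, *Pcgf6* 82.3 and *L3mbtl2* 73.1, whereas *E2f6* had 35.3. The exception per kb of span was *Yaf2*. Per kb of exon *Ring1* was below the median too, at 93.4 beside 118.8. The differences between these lists are descriptions of pooled means, and none was tested.

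**Figure D5:**
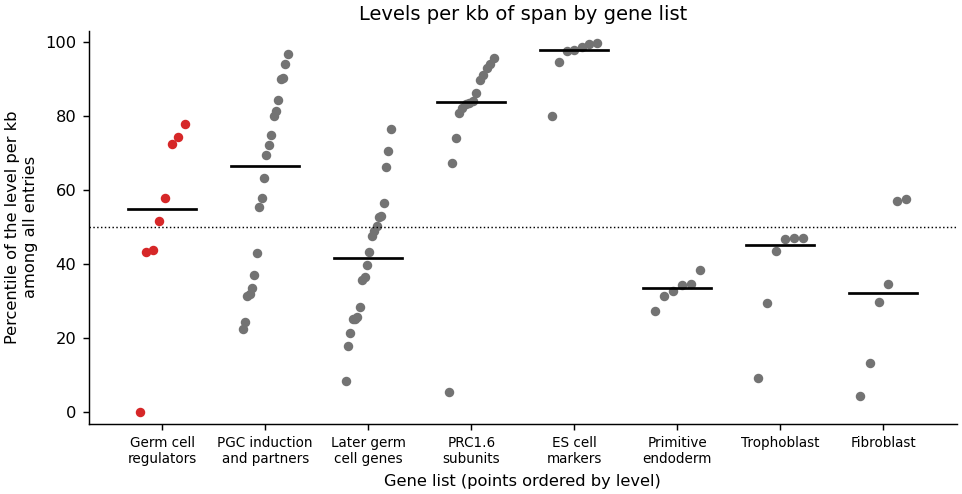
Percentile of the level per kb of gene span among all entries with a mean above 0, 1 point per gene, for the germ cell regulators (red) and the other gene lists (grey). Bars mark the list medians and the dotted line the 50th percentile. The germ cell regulators, with a median of 54.8, lie between the PGC induction and partner genes at 66.5 and the later germ cell genes at 41.7, and the PRC1.6 subunits lie at 83.9; per kb of exon, not plotted, the regulators (45.9) and the later germ cell genes (44.9) lie side by side.

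*Dnd1* calls for a separate remark on position. It lies on the minus strand of chromosome 18 (36763673 to 36766198), 0.33 kb downstream of *Hars* on the same strand, and it overlaps *Wdr55* on the opposite strand over 5.46% of its span. *Hars* had a level of 66.9 normalized counts per kb, above the 45.1 of *Dnd1* (561 and 78.4 per kb of exon), and reads of *Hars* transcripts that run into *Dnd1* were not separated. For the other regulators the nearest protein-coding gene upstream on the same strand was 9.09 kb away or more, with *Ccdc169*, at 0.71 per kb, the nearest to *Sohlh2*.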

How the data were processed

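Nuclear RNA from 3 UNT and 3 OHT libraries was sequenced with 40 bp paired-end reads from a directional kit. Per the labels and the methods of the study, the authors removed rRNA reads with Bowtie2, mapped the remainder to mm10 by STAR followed by Bowtie2, and counted reads on a filtered refGene set with their own script. The authors normalized these counts in DESeq2. Versions and the strand setting of the counting are not given in the sources used here. The authors' deposited mean normalized count is a signal: counts divided by size factors and averaged over all libraries, not corrected for length. The deposited table's other columns hold the authors' own comparison (log2 fold change, its error, a statistic, p-values and a threshold mark) and were not used, so no test of OHT against UNT was run.

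Symbols came from RefSeq's gene table (GRCm38.p6) and, for the rest, GENCODE vM21, giving 20560 of 20633 entries a name. Where a gene had several entries, the highest was kept. Spans and exonic lengths came from the matched GENCODE transcript. Entries without one took the span of the whole gene from RefSeq's gene table and had no exonic length. A span was known for 20560 entries and an exonic length for 20261. Percentiles, and the median and quartiles of all entries, are among entries with a mean above 0. The recovery of library steps was tested on simulated data. Genes named are all members, *Rybp*, *Yaf2*, family paralogues and the highest and lowest of each list; others were named after their values were seen. Members and lists were chosen with earlier results of these data known. Proteins were not used here, and 1 gene of the PRDM family is not reported here. Python 3.11.15, numpy 2.4.6, pandas 2.3.3, scipy 1.17.1 and matplotlib 3.10.9 were used.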

Additional observations from a re-analysis of the deposited data

How the results depend on the processing

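No paired analysis was possible because the only column used is a mean over all libraries. The planned count test, other normalizations and leaving out each replicate were not run on that account, and the protein comparison was not run. With no replicate spread, a percentile was taken as unmoved within 5 points and a level within 1.5 times. The median percentile of the germ cell regulators was 44.1 by mean; it was 31.4 with only entries of at least 10 as background and 54.8 when ranked per kb, and stayed within 5 points with entries at 0 included or 1 entry per gene. The median percentile of the PGC induction and partner genes moved from 60.6 to 51.6 and 66.5 under the same 2 changes, and that of the later germ cell genes from 44.3 to 31.6 with the minimum of 10. The PRC1.6 subunits moved by less than 5 points. Per kb of exon in place of span, the median level of the germ cell regulators was 90.2 in place of 18.8, and the order after *Kit* and *Nanos3* became *Prdm14*, *Sohlh2*, *Dnd1*, *Dazl* and *Prdm1*. In an alternative chosen after seeing the data, ranking per kb of exon in place of span moved the median percentile of the regulators from 54.8 to 45.9 and that of the PGC induction and partner genes from 66.5 to 60.8, and turned the order of *Dazl* and *Boll*. Of 48 alternatives for single regulators, 30 stayed within these limits, but that count is no measure of robustness, since many outcomes were fixed. Taking the lowest entry of a gene could change nothing, because each regulator has 1 entry. *Nanos2*, at 0, could hardly move under any setting. Dividing by exonic length always raises the level of a detected gene with introns. Ranked per kb, 4 regulators were higher, 1 (*Kit*) lower and 3 within 5 points. The number of CpG-rich promoters was 3 in the upstream part of the window too.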
